A study of Drosophila melanogaster with 6 samples.

Results

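The genes that set somatic sex in Drosophila melanogaster, dsx, fru, Sxl, tra, tra2, ix, her, vir and fl(2)d, were read in whole larvae that overexpressed a form of the histone acetyltransferase dTip60. A probe set is a group of array probes designed against one transcript, and a probe set was taken for a gene where the annotation of the platform gave it that gene's symbol and no other. All 9 genes had such a probe set, 18 in all, of 18769 probe sets tested. Of these 18, 7 belonged to fru, 3 to Sxl and 2 to dsx, and the other 6 genes had 1 each.

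Sex in the fly soma is set by a chain of splicing decisions. Sex-lethal (Sxl) is made in females, where its RNA-binding protein keeps up its own female splicing and directs that of transformer (tra), and the Tra protein acts with transformer 2 (tra2) on the pre-mRNAs of doublesex (dsx) and fruitless (fru). The dsx gene then yields a female or a male transcription factor, and sex-specific fru transcripts are made in neurons. Virilizer (vir) and female lethal d (fl(2)d) encode parts of the complex that writes N6-methyladenosine (m6A) on RNA and are needed for female Sxl splicing, intersex (ix) encodes a Mediator subunit that works with the female Dsx protein, and hermaphrodite (her) encodes a zinc finger protein that acts at more than one level of the chain. Since sex is carried mainly by splicing and not by the amount of transcript, an intensity summed over probes gives a level and not a sex.

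The study asked what loss of the acetyltransferase activity of dTip60 does to transcription during development. Males of the 337-GAL4 line, which drives UAS transgenes in all tissues, were crossed to virgin females of 3 kinds, and the progeny were compared. The dTip60E431Q larvae carried line B of a UAS transgene for dTip60 with the E431Q substitution in the catalytic domain, inserted on chromosome 3, which is lethal with this driver late in the second instar. The dTip60WT larvae carried line B of a UAS transgene for wild-type dTip60, and the control larvae came from w1118 and had the driver with no transgene. The endogenous dTip60 gene was present in all 3 genotypes, and each transgene was represented by 1 insertion line. RNA came from 2 pools of 35 whole larvae per genotype, kept for 3 days at 25 °C, with 1 Affymetrix Drosophila Genome 2.0 array for every pool. The labels do not give the sex of the larvae, so that the share of females in a pool is not known.

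The deposited values were model-based expression indexes on a linear scale, called intensities here. The median intensity was 51.5 and 51.9 on the dTip60E431Q arrays, 43.8 and 45.2 on the dTip60WT arrays and 44.4 and 43.6 on the control arrays. The probe set of Tip60 followed the labels, at 5172 and 5464 in dTip60E431Q and 3045 and 2755 in dTip60WT larvae, against 30.8 and 29.2 in the control. Changes are log2 differences of genotype means from 1 limma fit to all 6 arrays, given with their standard error (SE), and a probe set passed where its p, adjusted by the Benjamini-Hochberg method over all 18769 probe sets, was below 0.05. With 2 arrays a genotype, the precision is limited by the number of arrays. A probe set whose name ends in _s_at may also match other transcripts, and one in _a_at reads alternative transcripts of 1 gene. Probe sequences were not analysed here, so that which of the sex-specific transcripts of Sxl, dsx or fru a probe set reads is not known.

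In dTip60E431Q larvae, 1 probe set each of dsx and fl(2)d fell and 1 each of her and Sxl rose against the control, while vir, tra, tra2, ix and the 7 probe sets of fru did not pass. These 4 of 18 probe sets (22.2%) compare with 23.6% of all probe sets tested. Among all probe sets 11.9% rose and 11.7% fell, and among the 18 there were 2 in each direction. A change that passed and was at least 2-fold was seen in 3 of the 18 (16.7%) and in 14.4% of all probe sets. The median size of the change, without its sign, was 0.31 on the log2 scale over the 18 probe sets and 0.52 over all. The dTip60E431Q arrays did not overlap the control arrays for 11 of the 18, while 64.1% of all probe sets did not overlap. The sex determination genes therefore passed at about the rate of the array as a whole, and the single largest change among them was that of dsx.

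**Figure D1:**
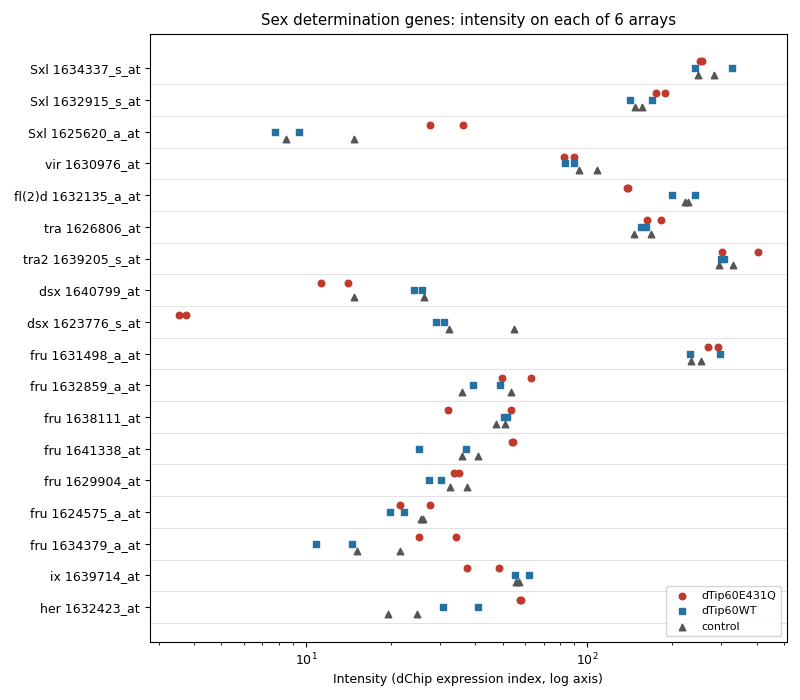
Intensity (dChip expression index, log axis) of the 18 probe sets of the 9 sex determination genes, 1 point per array, with dTip60E431Q above dTip60WT and the control in each row. The dTip60E431Q arrays lie farthest from the other 4 arrays for dsx 1623776_s_at.

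Sxl, the switch gene of the chain, was read by a bright pair of probe sets and a dim one that did not behave alike. The brightest, 1634337_s_at, read 256 and 251 in dTip60E431Q larvae, 327 and 241 in dTip60WT larvae and 283 and 248 in the control. The 3 genotypes overlapped, and the change in dTip60E431Q was -0.06 ± 0.20 (log2, SE; adjusted p = 0.851, limma). The second, 1632915_s_at, read 189 and 175 in dTip60E431Q, 169.9 and 142 in dTip60WT and 148 and 156 in the control, a change of 0.26 ± 0.15 that did not pass (adjusted p = 0.28).

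The dim Sxl probe set, 1625620_a_at, read 36.1 and 27.6 in dTip60E431Q larvae, 9.47 and 7.73 in dTip60WT larvae and 8.47 and 14.8 in the control. Both dTip60E431Q arrays were above the other 4, and the rise of 1.49 ± 0.34 (2.81-fold, 95% confidence interval 0.60 to 2.39 on the log2 scale) passed with an adjusted p of 0.0417. The call was lost after median scaling of the arrays (1.26, adjusted p = 0.0637) and without any 1 of the 4 arrays compared (1.09 to 1.90, adjusted p 0.0516 to 0.158), and a pseudocount of 16 reduced the change to 0.79 with the call kept. The mean of this probe set lay at percentile 26.2 of all probe sets, and those of 1634337_s_at and 1632915_s_at at percentiles 80.1 and 71.9.

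Of the genes needed for female Sxl splicing, fl(2)d fell and vir did not pass. The probe set of fl(2)d, 1632135_a_at, read 139 and 139.7 in dTip60E431Q larvae, 242 and 201 in dTip60WT larvae and 223 and 228 in the control. Both dTip60E431Q arrays were below the other 4 and within 1 unit of each other, and the fall was -0.70 ± 0.14 (1.62-fold; adjusted p = 0.0331). The size of the fall was the same to within 0.02 without any 1 of the 4 arrays compared, but the adjusted p was then 0.110 to 0.127. For vir, 1630976_at read 82.7 and 89.5 in dTip60E431Q, 83.5 and 90.0 in dTip60WT and 108 and 93.7 in the control. Here both transgenic genotypes lay below the control by a like amount, -0.23 ± 0.14 in dTip60E431Q (adjusted p = 0.313) and -0.22 ± 0.14 in dTip60WT (adjusted p = 1), and neither passed.

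The genes that act between Sxl and its targets, tra and tra2, did not pass. The probe set of tra, 1626806_at, read 183 and 164 in dTip60E431Q larvae, 155 and 162 in dTip60WT larvae and 169 and 147 in the control. The change was 0.14 ± 0.14, and its 95% confidence interval of -0.24 to 0.51 leaves room for a fall or a rise of less than 1.5-fold. The probe set of tra2, 1639205_s_at, read 300.8 and 403 in dTip60E431Q, 307 and 299 in dTip60WT and 295 and 329 in the control. The second dTip60E431Q pool was the highest of the 6 and the first lay within the range of the others, a change of 0.16 ± 0.19 (95% confidence interval -0.34 to 0.66; adjusted p = 0.587).

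The 2 probe sets of dsx, the last gene of the chain in most somatic cells, were both lowest in dTip60E431Q larvae, and 1 of them passed. The probe set 1623776_s_at read 3.75 and 3.53 in dTip60E431Q larvae, 31.0 and 29.0 in dTip60WT larvae and 55.1 and 32.3 in the control. The dTip60E431Q pools agreed closely and lay far below every other pool, and the fall of -3.54 ± 0.28 (11.6-fold, 95% confidence interval -4.30 to -2.78 on the log2 scale) had an adjusted p of 0.00675. The other probe set, 1640799_at, read 14.1 and 11.3 in dTip60E431Q, 24.3 and 25.8 in dTip60WT and 14.8 and 26.3 in the control. Both dTip60E431Q arrays were again the lowest, but the first control array was nearly as low, and the change of -0.64 ± 0.32 did not pass (adjusted p = 0.23).

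The fall of dsx 1623776_s_at ended near the bottom of the array. In dTip60E431Q larvae the probe set stood at percentiles 5.8 and 5.3 of its array, in dTip60WT larvae at 43.1 and 40.8, and in the control at 53.9 and 44.2. Whether the dTip60E431Q values are above background was not tested, since the deposited table gives no detection call, and with a pseudocount of 16 the change was -1.58 (adjusted p = 0.00238). The call was kept without any 1 of the 4 arrays compared (-3.15 to -3.92, adjusted p 0.0313 to 0.0473), and lost in the methods' t-test (adjusted p = 0.431). In pools of whole larvae, fewer cells that express dsx and less dsx RNA per cell cannot be told apart.

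The fru gene, whose male-specific proteins are made in the nervous system but which also has transcripts common to both sexes, was read by 7 probe sets and none passed against the control. The brightest, 1631498_a_at, read 269 and 291 in dTip60E431Q larvae, 297 and 232 in dTip60WT larvae and 234 and 255 in the control, a change of 0.20 ± 0.17 (95% confidence interval -0.26 to 0.66; adjusted p = 0.465). The dTip60E431Q arrays lay above the control arrays but inside the range of dTip60WT. The changes of the 7 probe sets ran over both signs, 4 above 0 and 3 below it.

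Of these 7, the 2 with the largest changes against the control were higher in dTip60E431Q larvae, and neither passed. The first, 1641338_at, read 54.6 and 54.0 in dTip60E431Q, 37.0 and 25.2 in dTip60WT and 35.9 and 40.9 in the control, a change of 0.50 ± 0.23 against the control (adjusted p = 0.189). The second, 1634379_a_at, read 25.3 and 34.2 in dTip60E431Q, 14.6 and 10.9 in dTip60WT and 15.2 and 21.7 in the control, a change of 0.70 ± 0.29 (adjusted p = 0.164). Both stood higher against dTip60WT than against the control, by 0.83 ± 0.23 (adjusted p = 0.0646) and by 1.23 ± 0.29 (2.34-fold, adjusted p = 0.0465).

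The other 4 fru probe sets overlapped the control. The probe set 1632859_a_at read 49.7 and 63.0 in dTip60E431Q larvae, 48.8 and 39.3 in dTip60WT larvae and 35.8 and 53.6 in the control (0.35 ± 0.27). The probe set 1638111_at read 53.4 and 32.0 in dTip60E431Q, 50.5 and 51.9 in dTip60WT and 50.9 and 47.3 in the control (-0.25 ± 0.27), with the dTip60E431Q pools at either end of the 6 arrays. The remaining pair was close to flat, with 35.0 and 33.7 in dTip60E431Q, 27.4 and 30.3 in dTip60WT and 32.5 and 37.5 in the control for 1629904_at (-0.02 ± 0.14). For 1624575_a_at the values were 27.6 and 21.6 in dTip60E431Q, 19.9 and 22.2 in dTip60WT and 25.6 and 26.1 in the control (-0.08 ± 0.17).

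The partner of the female Dsx protein, ix, did not pass. Its probe set 1639714_at read 37.5 and 48.7 in dTip60E431Q larvae, 62.0 and 55.3 in dTip60WT larvae and 57.1 and 55.8 in the control. Both dTip60E431Q arrays were below the other 4, with a change of -0.40 ± 0.18 (95% confidence interval -0.87 to 0.07; adjusted p = 0.181).

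The zinc finger gene her rose. Its probe set 1632423_at read 58.4 and 57.8 in dTip60E431Q larvae, 30.7 and 40.9 in dTip60WT larvae and 19.6 and 24.7 in the control. The 3 genotypes did not overlap, in the order dTip60E431Q, dTip60WT, control. The rise in dTip60E431Q was 1.40 ± 0.21 (2.64-fold, 95% confidence interval 0.84 to 1.96 on the log2 scale; adjusted p = 0.0168). In dTip60WT larvae her stood 0.69 ± 0.21 above the control (1.61-fold), which did not pass (adjusted p = 0.833), and dTip60E431Q stood 0.71 ± 0.21 above dTip60WT, which did not pass either (adjusted p = 0.0783). Without any 1 of the 4 arrays compared, the rise in dTip60E431Q was 1.23 to 1.57 and its adjusted p 0.0551 to 0.0800.

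**Figure D2:**
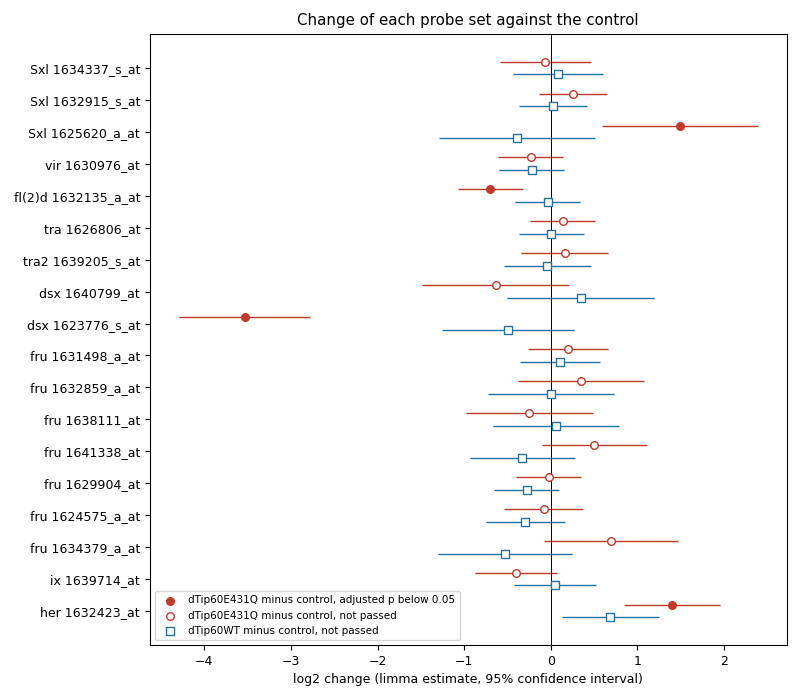
Change of each of the 18 probe sets against the control (log2, limma estimate with its 95% confidence interval) for dTip60E431Q (circles, filled where the adjusted p is below 0.05) and dTip60WT (squares, none passed). In dTip60E431Q the probe set dsx 1623776_s_at is lowest at -3.54 and Sxl 1625620_a_at and her are highest at 1.49 and 1.40.

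Overexpression of wild-type dTip60 gave no probe set of the 9 genes that passed against the control (0 of 18 in limma, beside 0.00533% of all probe sets, which is 1 probe set, that of Tip60). At an unadjusted p below 0.05 there was 1 of 18, that of her, against 1051 of all probe sets, and the methods' t-test called none of the 18. For dsx 1623776_s_at the dTip60WT arrays lay below both control arrays by -0.49 ± 0.28 (adjusted p = 1), with a 95% confidence interval of -1.25 to 0.27.

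Set against dTip60WT, the dTip60E431Q larvae differed in 4 of the 18 probe sets (22.2%), where 24% of all probe sets passed, 12.2% higher and 11.7% lower. The falls were again those of dsx 1623776_s_at (-3.04 ± 0.28, 8.24-fold, adjusted p = 0.00676) and fl(2)d (-0.66 ± 0.14, adjusted p = 0.0367), and the rises were those of Sxl 1625620_a_at (1.88 ± 0.34, 3.69-fold, adjusted p = 0.0237) and of fru 1634379_a_at. With a pseudocount of 16 the dsx change was -1.23 and that of Sxl 1625620_a_at 0.95. This comparison shares the dTip60E431Q arrays with the one against the control. The dsx call was lost without dTip60WT replicate 1 (-2.99, adjusted p = 0.0521) or replicate 2 (-3.09, adjusted p = 0.051), and the other 3 calls without any 1 of the 4 arrays compared. The second dsx probe set stood at -0.98 ± 0.32 and did not pass (adjusted p = 0.0984).

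**Figure D3:**
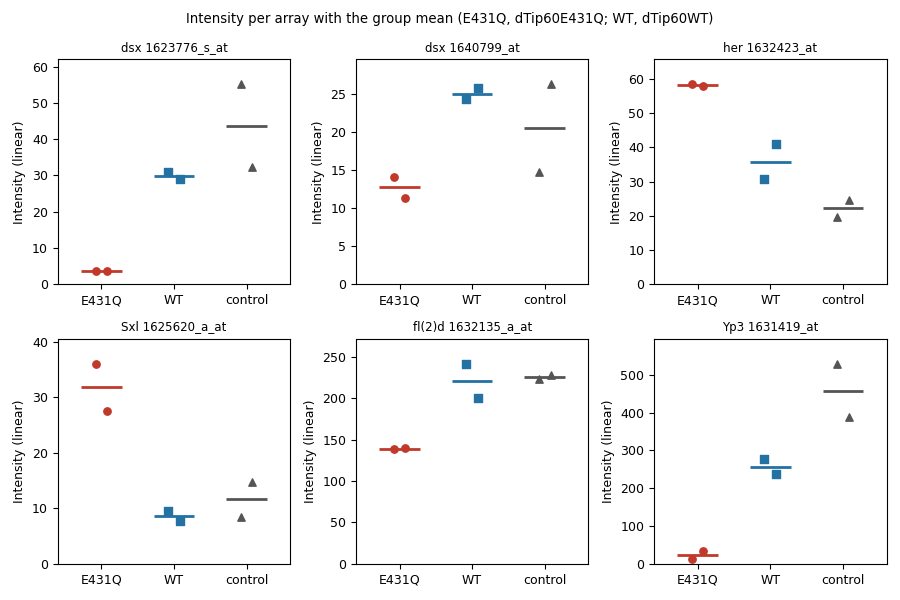
Intensity (linear axis from 0) on each array with the mean of the genotype as a line, for both dsx probe sets, her, the dim Sxl probe set, fl(2)d and the yolk protein gene Yp3. The dTip60E431Q arrays are lowest for both dsx probe sets, fl(2)d and Yp3 and highest for her and Sxl 1625620_a_at.

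The genes around this chain were read from 12 lists of named genes, with the brightest probe set of each gene, and are set beside the 11982 genes with a probe set of 1 symbol, of which 14.2% rose and 14.2% fell in dTip60E431Q larvae against the control with a median change of 0.03. Their members overlap the roles above but not the 9 genes themselves. No gene of any list passed in dTip60WT larvae against the control.

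Among regulators of the Sxl promoter, which count the X chromosomes of the embryo, 2 of 7 measured genes rose and none fell (median change 0.07). They were emc, a repressor of such helix-loop-helix factors as Sc, at 1495 and 1681 in dTip60E431Q larvae, 987 and 899 in dTip60WT larvae and 982 and 975 in the control (0.70 ± 0.13, adjusted p = 0.0277). The other was the JAK/STAT ligand gene upd1, at 26.3 and 30.1 in dTip60E431Q, 13.2 and 5.62 in dTip60WT and 6.73 and 6.15 in the control (2.13 ± 0.44, adjusted p = 0.0335). Lower without passing were the transcription factor gene Stat92E at -0.51 ± 0.15 and the X-counting gene sc at -1.19 ± 0.45. After median scaling 1 member of the list rose and 2 fell.

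The m6A machinery and the splicing partners of Sxl fell in 5 of 9 measured genes and rose in none (median -0.70). The gene pps, whose protein binds the splicing factor Snf and acts with Sxl, read 19.4 and 21.8 in dTip60E431Q larvae, 80.2 and 62.9 in dTip60WT larvae and 82.1 and 70.5 in the control (-1.89 ± 0.19, adjusted p = 0.00809). Those of the m6A complex were flacc (-0.99 ± 0.14), nito (-0.99 ± 0.17) and Mettl14 (-0.70 ± 0.12), and the fifth was the splicing factor gene U2af38 (-0.71 ± 0.11). Ythdc1, a reader of m6A, stood at 0.07 and Hakai, a further part of the complex, at -0.01, and neither passed.

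The SR proteins and kinases that work with Tra and Tra2 fell in 4 of 6 measured genes and rose in none (median -0.83). The kinase gene Srpk79D read 77.5 and 94.9 in dTip60E431Q larvae, 244 and 212 in dTip60WT larvae and 250.0 and 225 in the control (-1.47 ± 0.17, adjusted p = 0.0103). The SR protein genes SC35, SF2 and B52 fell by 1.00, 0.86 and 0.79 on the log2 scale. The Doa kinase gene, which is needed for female dsx splicing, stood at 0.27 and did not pass.

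Relatives, partners and targets of Dsx and Fru went in both directions, with 2 of 16 measured genes higher and 5 lower (median -0.22). The yolk protein gene Yp3, which the female Dsx protein activates in adult fat body, read 11.8 and 32.9 in dTip60E431Q larvae, 276 and 238 in dTip60WT larvae and 529 and 387 in the control. Every dTip60E431Q array was below all others, a fall of -4.52 ± 0.53 (23.0-fold, adjusted p = 0.0106). Its neighbour in function Yp1 was dim and rose, at 11.0 and 12.8 in dTip60E431Q, 14.9 and 15.0 in dTip60WT and 7.52 and 7.65 in the control (0.65 ± 0.13, adjusted p = 0.0326), and Yp2 stood at 1.09 and did not pass.

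The bric-a-brac genes, which Dsx regulates in the abdomen, parted. The bab2 probe set read 362 and 323 in dTip60E431Q larvae, 115 and 120 in dTip60WT larvae and 142 and 137 in the control (1.30 ± 0.13, 2.46-fold, adjusted p = 0.00798). The dimmer bab1 probe set read 2.33 and 5.86 in dTip60E431Q, 19.4 and 25.1 in dTip60WT and 16.4 and 16.7 in the control (-2.16 ± 0.48, adjusted p = 0.04). The genes of the chromatin partners of Fru, Su(var)205 (HP1a) and HDAC1, fell by 0.68 and 0.67. The gene bon of the same list stood at 0.05 and did not pass. The lola gene, which acts with fru in neurons, fell by 0.59 on the brightest of its 15 probe sets, and the others were not read here. The adjusted p of these falls was 0.0238 to 0.0457 in limma. The 3 measured relatives of dsx with the same DNA-binding domain, dmrt11E, dmrt93B and dmrt99B, stood at 0.70, -0.25 and -1.02, and none passed.

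Dosage compensation raises transcription of the X chromosome in males, and Sxl blocks it in females through msl-2. No gene of the 8 measured passed (median 0.30). At an unadjusted p below 0.05 in limma there were 2 of the 8, beside 5223 of the 11982 genes. These 2 went opposite ways. The msl-1 probe set read 130.1 and 155 in dTip60E431Q larvae, 86.1 and 103 in dTip60WT larvae and 106 and 75.9 in the control (0.67 ± 0.23, adjusted p = 0.112). That of Unr, whose protein acts with Sxl on msl-2 mRNA, read 80.4 and 70.6 in dTip60E431Q, 105 and 88.9 in dTip60WT and 103 and 97.4 in the control (-0.41 ± 0.15, adjusted p = 0.13). Changes of msl-2 and mof, the X-chromosome acetyltransferase gene, were 0.47 and 0.37. The male-specific RNAs roX1 and roX2 were not analysed here.

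**Figure D4:**
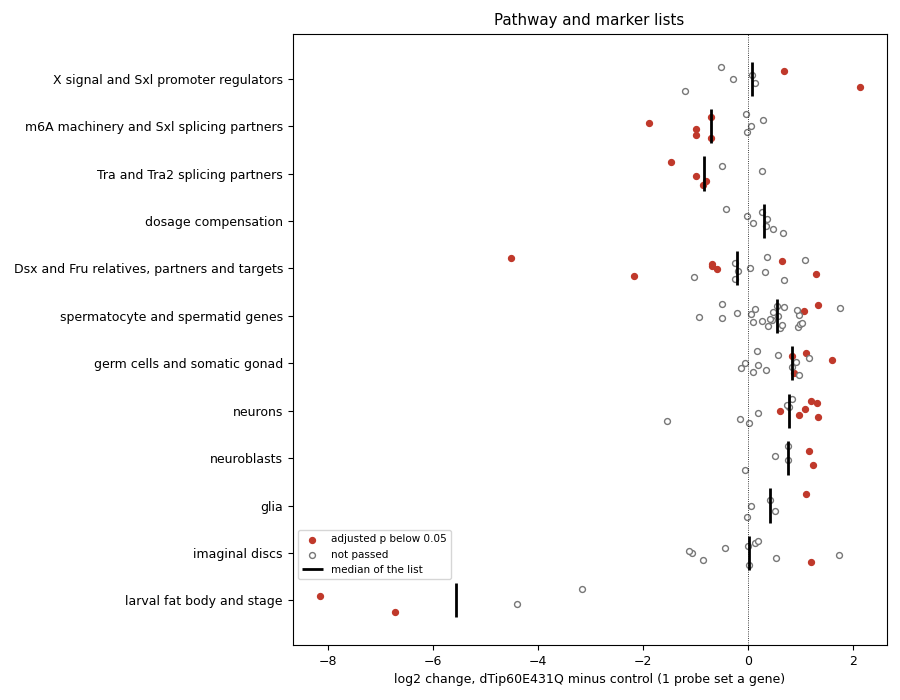
Log2 change of each measured gene of the 12 pathway and marker lists in dTip60E431Q larvae against the control, filled where the adjusted p is below 0.05, with a bar at the median of each list. The medians of both splicing lists lie at -0.70 and -0.83 and those of the neuron and germ cell lists at 0.79 and 0.84. That of the larval fat body and stage list lies at -5.56, over 4 measured genes of which 2 passed.

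Marker lists of cell types that differ between the sexes or that express dsx, fru or Sxl were read in the same way. Of 25 spermatocyte and spermatid genes, which in larvae come from the testis, 2 rose, none fell and 23 did not pass (median 0.56). They were fzo (1.34 ± 0.15, adjusted p = 0.0102) and Mst98Ca (1.07 ± 0.13, adjusted p = 0.0111), and bol (-0.93 ± 0.23) went the other way without passing. The intensities of this list summed to 1650 and 1983 on the dTip60E431Q arrays, 1306 and 1649 on the dTip60WT arrays and 1292 and 1359 on the control arrays, so that the lower dTip60E431Q pool and the higher dTip60WT pool were alike. After median scaling 2 rose and 2 fell.

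Genes of germ cells and of the somatic gonad, where dsx and Sxl are also expressed, rose in 4 of 15 and fell in none (median 0.84). These were esg (1.10 ± 0.13), AGO3 (1.60 ± 0.22), spn-E (0.84 ± 0.16) and nos (0.88 ± 0.19), and the defining germ cell gene vas stood at 0.98 without passing. The pools were of whole larvae, so that the tissue in which these genes rose is not known. The germ cell genes ovo, piwi, bam and zpg stood at -0.13, -0.05, 0.10 and 0.20, and none of these passed. The sum over the list was 899.6 and 879 in dTip60E431Q larvae, 669 and 607 in dTip60WT larvae and 608 and 607 in the control. After median scaling 2 of the genes rose.

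The neuron list, which bears on fru, rose in 6 of 13 genes and fell in none (median 0.79). Snap25 (1.33 ± 0.16), Gad1 (1.32 ± 0.20), Appl (1.20 ± 0.18) and cac (0.98 ± 0.13) had the smallest unadjusted p, while the pan-neuronal gene elav stood at 0.01. Below 0 were brp at -0.15 and nSyb, a dim probe set, at -1.54, and neither passed. The sum over the neuron list was 1680 and 1604 in dTip60E431Q larvae, 1120 and 888 in dTip60WT larvae and 1001 and 994 in the control. Among neuroblast genes wor (1.24 ± 0.21) and insc (1.17 ± 0.24) rose, 2 of 6. The neuroblast gene ase stood at -0.06, mira at 0.76 and pros at 0.52, and none of these passed. The neuroblast sum was 1374 and 1670 in dTip60E431Q, 961 and 748 in dTip60WT and 858 and 959.6 in the control. Among glial genes alrm rose (1.10 ± 0.16), 1 of 5. The glial genes repo and nrv2 stood at -0.01 and 0.06 and moody at 0.52, and none of these passed. The glial sum was 4458 and 4179 in dTip60E431Q, 3588 and 3737 in dTip60WT and 3089.5 and 3505 in the control. Most of the glial sum was Gs2 and most of the neuroblast sum was grh, and neither gene passed (adjusted p = 0.107 and 0.0733). After median scaling 4 neuron genes, 1 neuroblast gene and 1 glial gene rose.

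Imaginal discs, where dsx is expressed in limited regions, gave 1 gene of 11 that rose, nub (1.20 ± 0.13, adjusted p = 0.00986), and none that fell (median 0.02). Lower without passing were dac (-1.13 ± 0.29), eya (-1.06 ± 0.30) and ap (-0.86 ± 0.25). Dll was higher without passing (0.53 ± 0.14). The sum over the list was 836 and 939 in dTip60E431Q larvae, 855 and 772 in dTip60WT larvae and 848 and 824 in the control, and the genotypes overlapped. After median scaling 1 disc gene rose and 3 fell.

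Genes of the larval fat body and of late larval stages moved most. Of 11 listed genes 4 were measured, and of these 2 fell, none rose and 2 did not pass. Lsp2, a storage protein of the third instar, read 139.6 and 130.0 in dTip60E431Q larvae, 13420 and 13157 in dTip60WT larvae and 15146 and 13517 in the control (-6.73 ± 0.13, 106-fold, adjusted p = 0.0014). The fat body gene Fbp2 fell by 8.16 on the log2 scale. The Fbp1 and Sgs3 probe sets, which also mark the third instar, split pools of 1 genotype. Fbp1 read 3.32 and 6.42 in dTip60E431Q, 5.01 and 1015 in dTip60WT and 1329 and 7.09 in the control, and Sgs3 was high in the same pools. Stage and genotype cannot be told apart in this design, and the parts of stage, tissue make-up and sex ratio in the changes of dsx, her, Sxl, fru and fl(2)d were not tested.

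By pattern over the 6 arrays, the genes most like dsx and fru were sought among other genes above the median level. This is a description over arrays that share genotypes. The probe set used for each was the one with the highest mean log2 intensity over the 6 arrays. For dsx this was 1640799_at, although 1623776_s_at read higher on every dTip60WT and control array. For dsx 1640799_at they were CG12301 (Pearson r = 0.994), CG4942, RpLP0, CG17266 and cutlet (0.984), and for fru 1631498_a_at they were CG17490 (0.992), CG9427, CG14312, ari-2 and CG10904 (0.965). None of the 10 passed against the control. The same search with dsx 1623776_s_at, made after its values were seen, gave CG34228 (0.999), Orct, Dbp45A, fh and br (0.998), all 5 of which fell in dTip60E431Q larvae, and 1407 of 8154 probe sets had r above 0.95 with it.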

How the data were processed

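Expression was measured in 6 pools of whole larvae, 2 for each genotype. The deposited values are intensities on a linear scale, which the authors obtained with GCOS and then with dChip as normalized model-based expression indexes. The baseline array, the probe model and the software versions are not given in the sources used here. Of 18952 probe sets, 183 Affymetrix controls were left out, and symbols came from the platform annotation of 2016. Their log2 was taken without a pseudocount or a filter on dim probe sets. The tests used limma 3.58.1 (R 4.3.3), 1 mean per genotype on all 6 arrays (3 residual degrees of freedom), eBayes, and Benjamini-Hochberg adjustment over 18769 probe sets. The procedure was tested on simulated data, in 10 runs with 50 probe sets changed at each size. On average 1.7 of the 2-fold, 20.8 of the 4-fold and 28.6 of the 8-fold changes passed. Far more probe sets passed in the real data, and these rates need not hold there. Figures were drawn with matplotlib 3.10.9.

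The members and gene lists were chosen with earlier results of these data known. The text names every probe set of the 9 genes, Tip60, up to 4 genes of each list with the smallest unadjusted p for dTip60E431Q minus control, and the 5 genes most like dsx and fru; nito, bab1, HDAC1, lola and the list genes named without passing that lie outside these 4 were named after their values were seen. Of 150 listed genes, 125 were measured. Alternatives were a replicate block, a fit of the 4 arrays compared, trend and robust options, median scaling, quantile normalization, a pseudocount of 16, omission of probe sets below the 40th percentile, omission of each array, and the methods' t-test at an unadjusted p of at most 0.05 with a fold over 2, and after Benjamini-Hochberg adjustment.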

Additional observations from a re-analysis of the deposited data

How the results depend on the processing

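Against the control, the 4 probe sets that passed in dTip60E431Q larvae became 2 in the fit of the 4 arrays, 2 with the filter at the 40th percentile, which left out the dim dsx and Sxl probe sets, and 1 when any 1 array was left out (lowest 1, highest 1), that of dsx 1623776_s_at. The methods' t-test called 1, that of her, and not dsx (unadjusted p = 0.177), and 0 after Benjamini-Hochberg adjustment. Against dTip60WT the 4 became 0 to 1 when an array was left out, 1, that of dsx, by the methods' t-test and 0 after adjustment. The replicate numbers did not pair the samples (r = -0.013, -0.012 and -0.0073 between deviations of like-numbered arrays), and with a replicate block 2 probe sets, dsx and her, passed against the control and 1 against dTip60WT. Of all probe sets, 4432 passed against the control, 2754 in the fit of the 4 arrays, 2675 with the block, 776 to 1617 without 1 array and 1558 by the methods' t-test. For dTip60WT against the control the count over all probe sets was 1, 31 with trend and robust options and 98 by the methods' t-test. Of 633 repeats of the 54 member changes, 544 kept direction and side of the threshold, 36 changed sign without passing either way, 47 lost the call, 6 gained it and 0 reversed a called value. Median scaling moved the median change of all probe sets to -0.20 and quantile normalization to -0.07, against 0.04 as deposited. Over 8 settings the genes that fell numbered 1 to 5 in the m6A and Sxl splicing list and 1 to 5 in the Tra and Tra2 list, the fewest with a fold of at least 2, and those that rose numbered 4 to 8 in the neuron list and 2 to 6 in the germ cell list. Lists were not repeated without single arrays. The dsx and Sxl probe sets that passed are dim.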

Other observations

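The genes that flank dsx, her, fl(2)d and Sxl on the chromosome (order from RefSeq, Release 6 plus ISO1 MT) were read after the member values were seen, with the 2 nearest protein-coding genes on each side that had a probe set. None of the 4 neighbours of dsx passed in dTip60E431Q larvae against the control, with CG10445 at 0.12, lds at -0.48, CD98hc at -0.12 and the dim Os-C at -1.37, where dsx 1623776_s_at stood at -3.54. None of the 4 neighbours of Sxl passed. Of those of her, grp fell (-0.96, adjusted p = 0.014) and Trpgamma rose on a dim probe set, with 8.73 and 8.62 in dTip60E431Q larvae, 1.35 and 1.00 in dTip60WT larvae and 1.00 and 1.00 in the control. Of those of fl(2)d, the cuticle protein gene Cpr50Cb rose by 4.22 where fl(2)d fell. It read 1824 and 1932 in dTip60E431Q, 60.0 and 44.8 in dTip60WT and 71.9 and 141 in the control. The other neighbours of fl(2)d, stj at 0.52, CG13339 at -0.12 and CG6329 at 0.44, did not pass. The p-values are adjusted in limma over all probe sets.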
